A study of Mus musculus with 51 samples.

Results

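The 7 genes Gulo, Rgn, Slc23a1, Slc23a2, Slc2a1, Slc2a3 and Gsto1 make, carry or regenerate vitamin C (VitC, ascorbate). They were chosen by name from the 23358 genes listed for femurs of mice with and without VitC and from the 25938 genes listed for femurs of Tet mice, and all 7 were found in both. Around each gene, peaks of 5-hydroxymethylcytosine (5hmC) and of histone methylation were taken where their midpoint lay in the gene or within 30 kb of it.

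The VitC experiment compared 3 groups of mice at 20 weeks with 3 RNA-seq libraries each. VitC+ and VitC+/- mice were homozygous for the Gulo tm1Mae allele and ate chow without VitC. VitC+ mice drank water with 3.3 g/L VitC throughout, whereas VitC+/- mice received it until week 15 only. WT mice carried intact Gulo. In the Tet experiment, at 11 weeks, floxed Tet1, Tet2 or both were deleted by Prrx1-Cre, which is active in the limb mesenchyme, on a C57BL/6 background. The controls (Ctrl) carried Prrx1-Cre and no floxed allele, and 3 libraries each were made from Ctrl, from Tet1 cKO, from Tet2 cKO and from Tet1/2 cKO mice. Femurs had been flushed of marrow. 5hmC was mapped by immunoprecipitation and sequencing (hMeDIP-seq) in femurs of the VitC+, VitC+/-, Ctrl and Tet1/2 cKO groups and in MC3T3-E1, a mouse preosteoblast line from calvaria, grown with 50 or 0 µg/ml VitC for 28 days. Each 5hmC group is 1 peak list made from pooled samples, 3 per femur group and 2 per cell group, and the same holds for H3K27me3 and H3K9me3 in MC3T3-E1 (2 samples per list).

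Mice build ascorbate from glucose in the liver. Rgn (regucalcin) acts as a gluconolactonase, which forms the lactone, and Gulo, L-gulonolactone oxidase, carries out the last step. Other cells take ascorbate up with sodium through SVCT1 (Slc23a1), known from kidney and gut epithelium, or SVCT2 (Slc23a2), which osteoblasts also use. The oxidised form, dehydroascorbate, enters through the glucose carriers GLUT1 (Slc2a1) and GLUT3 (Slc2a3). Gsto1, an omega-class glutathione transferase, can reduce dehydroascorbate back to ascorbate.

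The VitC libraries held 31.1 to 47.4 M reads, except WT replicate 1 with 7.65 M reads, and the Tet libraries held 28.6 to 49.8 M reads. The femurs carried osteoblast and osteocyte transcripts, whose 10 markers summed to between 688 and 11038 scaled RPKM (defined below) over the 9 VitC libraries, but neutrophil transcripts summed higher, to between 6832 and 71796 for 8 markers. WT replicate 1 and VitC+ replicate 1 held the most mRNA of hepatocytes (6 markers summing to 5.93 and 15.0 scaled RPKM, against 0.176 to 2.90 in the other 7). The library labelled Tet2 cKO replicate 1 stood apart from the other 11, with the highest skeletal muscle, adipocyte and endothelial sums and the lowest neutrophil, B-lineage and platelet sums. Gene-level counts of the targeted genes overlapped Ctrl or were higher. Tet1 stood at 374 to 435 normalized counts in Ctrl, 532 to 773 in the libraries labelled Tet1 cKO and 415 to 485 in those labelled Tet1/2 cKO. Tet2 stood at 2236 to 2512 in Ctrl, 1834 to 2245 in those labelled Tet2 cKO and 1851 to 2970 in those labelled Tet1/2 cKO, with 2 of 3 Tet2 cKO libraries below every Ctrl library. Such counts include the exons outside the floxed one, so they do not check the deletion.

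In VitC+/- femurs, GLUT1 and the dehydroascorbate reductase Gsto1 were higher than in VitC+ femurs. GLUT1 rose 2.28-fold and Gsto1 rose 1.87-fold. Against WT, both GLUT1 (2.08-fold) and the ascorbate carrier SVCT2 (1.93-fold) rose, and GLUT3 fell to 0.477 of its level. Per length of transcript, Gsto1 was the most abundant of the 7 in all 3 groups, followed by Slc2a3, Slc2a1, Slc23a2 and Slc23a1, and the synthesis genes Gulo and Rgn were near 0.

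All femur levels in the VitC experiment are given as scaled RPKM (reads per kilobase of transcript, relative to the size of the library, divided between libraries by median-of-ratios factors of 0.744 to 1.11). Differences were tested with limma on log2(scaled RPKM + 0.5) with Benjamini-Hochberg adjustment over the 12586 genes that reached 1 RPKM in at least 3 of 9 libraries. Slc23a2, Slc2a1, Slc2a3 and Gsto1 passed this minimum, and Gulo, Rgn and Slc23a1 did not. In VitC+/- against VitC+, 2 of the 4 tested genes rose and 0 fell. Among all tested genes, 5.53% rose and 8.02% fell, and with the values as deposited 473 rose and 403 fell in place of 696 and 1009. In VitC+/- against WT, 2 rose and 1 fell, beside 15.2% and 15.7% of all genes. In WT against VitC+, none of the 4 passed, with 0% of all tested genes called by limma and 2726 at an unadjusted p under 0.05. The median log2 fold change of the 4 was 0.66, 0.67 and 0.31 in these comparisons, against 0.01, 0.01 and 0.02 over all genes. The 3 comparisons share libraries, so their values stand side by side and are not independent.

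**Figure D1:**
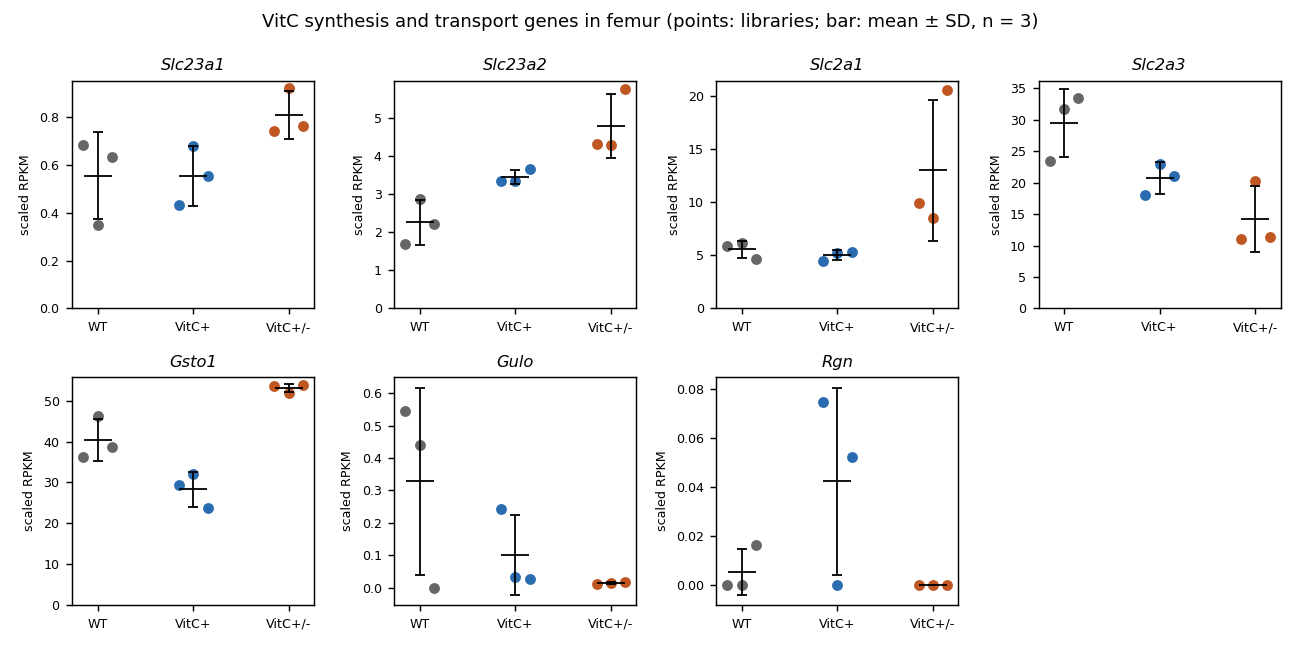
Scaled RPKM (linear axis) of the 7 genes in the 9 femur libraries of WT, VitC+ and VitC+/- mice, with points for libraries and bars for the mean ± SD (n = 3). All VitC+/- points of Slc23a1, Slc23a2, Slc2a1 and Gsto1 lie above all points of VitC+ and WT, and the VitC+/- points of Slc2a3 lie below all WT points. Among all tested genes, 20.4% lie so above VitC+, 21.4% above WT and 21.4% below WT.

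The sodium-coupled carrier SVCT2 formed a graded series. Slc23a2 stood at 1.70, 2.87 and 2.21 scaled RPKM in WT, 3.36, 3.36 and 3.66 in VitC+, and 4.33, 4.30 and 5.78 in VitC+/-. The 3 groups did not overlap, with WT lowest and VitC+/- highest. By limma, the log2 fold change in VitC+/- was 0.95 (SE 0.20) against WT, with an adjusted p of 0.00731, and 0.41 (SE 0.20) against VitC+, with an adjusted p of 0.188. WT against VitC+ gave -0.54 (SE 0.20, adjusted p = 0.165), every WT library lying below every VitC+ library as in 15.1% of all tested genes. Hence the outer groups passed the limma threshold of an adjusted p under 0.05, and neither neighbouring pair did. Every VitC+/- library above every VitC+ library was seen in 20.4% of all tested genes, and every VitC+/- library above every WT library in 21.4%.

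SVCT1 was expressed at a low level. Slc23a1 stood at 0.683, 0.347 and 0.630 scaled RPKM in WT, 0.430, 0.677 and 0.551 in VitC+, and 0.739, 0.920 and 0.760 in VitC+/-. All 3 VitC+/- libraries lay above the other 6, and WT and VitC+ overlapped, with means of 0.553 ± 0.181 and 0.553 ± 0.124 (SD, n = 3 each) against 0.806 ± 0.0989. The gene was under the minimum for testing, so no p is given. Of all tested genes, 20.4% had every VitC+/- library above every VitC+ library, and 21.4% had them above every WT library. Slc23a2 exceeded Slc23a1 in every library, and their ratio of RPKM, 4.76 ± 3.09 in WT, 6.47 ± 1.43 in VitC+ and 6.04 ± 1.47 in VitC+/-, overlapped between all groups (exact two-sided permutation p = 0.4 to 0.7 over 3 comparisons of 20 splits each).

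GLUT1 was similar in WT and VitC+ and higher without VitC. Slc2a1 stood at 5.92, 6.13 and 4.64 scaled RPKM in WT, 4.51, 5.24 and 5.33 in VitC+, and 9.90, 8.49 and 20.6 in VitC+/-. The VitC+/- libraries all lay above the other 6, as in 20.4% of all tested genes against VitC+ and 21.4% against WT. They differed widely among themselves, replicate 3 holding the highest value. The log2 fold change was 1.19 (SE 0.29, limma adjusted p = 0.0288) against VitC+ and 1.06 (SE 0.29, adjusted p = 0.0218) against WT. The call against VitC+ was lost without any 1 of the VitC+ libraries (adjusted p = 0.0775 to 0.0891) or without VitC+/- replicate 1 (0.0619), and the call against WT was lost without WT replicate 3 (0.0813), although the direction held in each case. WT against VitC+ gave 0.13 (SE 0.29, adjusted p = 0.834).

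GLUT3 followed the opposite order. Slc2a3 stood at 23.4, 31.8 and 33.4 scaled RPKM in WT, 18.0, 23.0 and 21.1 in VitC+, and 11.1, 20.2 and 11.3 in VitC+/-. Every VitC+/- library was below every WT library, as in 21.4% of all tested genes, and VitC+/- replicate 2 reached into the VitC+ range. The log2 fold change was -1.07 (SE 0.24, limma adjusted p = 0.0103) against WT and -0.58 (SE 0.24, adjusted p = 0.137) against VitC+. Without VitC+/- replicate 2, the latter was -0.85 with an adjusted p of 0.0272. WT lay above VitC+ in all libraries, as in 13.4% of tested genes, with a log2 fold change of 0.49 (SE 0.24) and an adjusted p of 0.269.

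The 2 GLUT carriers thus moved apart within libraries. The ratio of Slc2a3 to Slc2a1 RPKM, which needs no scaling between libraries, was 3.96, 5.18 and 7.20 in WT, 3.98, 4.40 and 3.96 in VitC+, and 1.12, 2.38 and 0.549 in VitC+/-. In VitC+/- replicate 3 the order of the carriers was turned, with more Slc2a1 than Slc2a3. The ratio in VitC+/- was 0.276 of that in VitC+ and 0.215 of that in WT, with no overlap, and the exact two-sided permutation test gave p = 0.1 for both, the smallest p that 3 against 3 libraries allow, or 0.225 after adjustment over 9 ratio comparisons. These ratios were chosen after the levels had been seen.

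Gsto1 gave the most uniform VitC+/- values. It stood at 36.2, 46.2 and 38.8 scaled RPKM in WT, 29.3, 32.1 and 23.7 in VitC+, and 53.6, 52.0 and 53.9 in VitC+/-. The 3 groups did not overlap, with VitC+ lowest. Of all tested genes, 20.4% had every VitC+/- library above every VitC+ library, 21.4% had them above every WT library, and 13.4% had WT above VitC+. The log2 fold change in VitC+/- was 0.91 (SE 0.15, limma adjusted p = 0.00726) against VitC+ and 0.40 (SE 0.15, adjusted p = 0.0664) against WT. The latter passed without WT replicate 2 (0.50, adjusted p = 0.0364). WT against VitC+ gave 0.51 (SE 0.15, adjusted p = 0.122).

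The synthesis genes were close to the limit of detection. Whole reads recovered from the RPKM of Gulo numbered 9, 39 and 0 in WT, 14, 3 and 3 in VitC+, and 1, 1 and 2 in VitC+/-. Since WT replicate 1 was sequenced less deeply, these correspond to 0.545, 0.439 and 0 scaled RPKM in WT, 0.242, 0.0337 and 0.0271 in VitC+, and 0.0123, 0.0134 and 0.0177 in VitC+/-. WT replicates 1 and 2 lay above all 6 Gulo knockout libraries, and WT replicate 3, with no read, lay below them. The mean log2(scaled RPKM + 0.01) was 1.67 higher in the 3 WT than in the 6 knockout libraries (exact two-sided permutation p = 0.381, with 0.0119 the smallest that 84 splits allow). This difference was 3.55 without WT replicate 3 (exact permutation p = 0.0357, the smallest that 28 splits allow), and 0.655 and 0.808 without WT replicate 1 and WT replicate 2. The reads are summed over the gene and include exons outside the deleted part, so they do not check the knockout. Of the 3 libraries with the most Gulo, VitC+ replicate 1 and WT replicate 1 also held the highest hepatocyte sums, whereas WT replicate 2, with 39 reads, held the lowest (0.176 scaled RPKM). The part of hepatocyte mRNA in the Gulo values was not tested. Rgn had 1 read in WT replicate 3, 3 and 4 reads in VitC+ replicates 1 and 3, and 0 reads in the other 6 libraries.

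Several cell type markers moved with the groups in which the carriers differed. The counts of markers that rose or fell stand beside the shares over all tested genes. These were 5.53% higher and 8.02% lower against VitC+, and 15.2% and 15.7% against WT. Summed osteoclast markers (6 genes) were 603 to 686 scaled RPKM in WT, 1651 to 2188 in VitC+ and 2326 to 5411 in VitC+/-, and 6 of 6 rose in VitC+/- against WT and 2 of 6 against VitC+. Summed neutrophil markers (8 genes) were 52311 to 71796, 29702 to 46208 and 6832 to 23303 in the same order, and 8 of 8 fell against WT and 2 of 8 against VitC+. The 6 B-lineage markers all fell in both comparisons, from 38.4 to 118 in WT and 55.5 to 114 in VitC+ to 9.30 to 20.3 in VitC+/-. VitC+/- replicate 2, which had the lowest Slc2a1 and the highest Slc2a3 of its group, also had the lowest osteoclast and highest neutrophil sum, and its adipocyte sum was the highest of the 9 libraries (1935). Summed osteoblast and osteocyte markers (10 genes) were 1039 to 4011 in WT, 5554 to 11038 in VitC+ and 688 to 4449 in VitC+/-, and 5 of 10 fell against VitC+ (median log2 fold change of the 10, -2.10), whereas 1 rose and 3 fell against WT. Summed megakaryocyte and platelet markers (6 genes) were 215 to 622, 245 to 679 and 131 to 180, and 3 of 6 fell against VitC+ and 2 of 6 against WT. Summed erythroid markers (6 genes) were 146 to 211, 147 to 229 and 259 to 361, and 1 of 6 rose in each comparison. For endothelial and adipocyte markers, 3 of 5 tested genes in each list rose against WT and none passed against VitC+. The macrophage sum (5 genes) was 121 to 166 in WT, 181 to 230 in VitC+ and 238 to 312 in VitC+/-, but its genes did not move together. Against VitC+, 1 rose and 1 fell (median log2 fold change of the 5, -0.10), and against WT, 2 rose and 1 fell (0.53). In whole femur, fewer cells of a type and less RNA per cell cannot be told apart, and the part of these cells in the carrier values was not tested.

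Over the 9 libraries, Slc23a2 and Slc2a1 varied alike (Pearson r = 0.72) and both varied against Slc2a3 (r = -0.75 and -0.74). Gsto1 correlated with Slc2a1 at 0.72, with Slc23a2 at 0.37 and with Slc2a3 at -0.36. These values describe 9 libraries in 3 groups, and the groups themselves produce much of the variation. By the same measure over the other 12585 tested genes, the genes most like Slc23a2 were D5Ertd579e (0.984), Plxna1 (0.974), a semaphorin receptor, and Siglec15 (0.972), a sialic acid-binding receptor known from osteoclasts. Those most like Slc2a1 were Polk (0.982), a DNA polymerase, Ppp1r13l (0.964) and Lrrk1 (0.961), a kinase. Tmem216 (0.985), the autophagy gene Atg7 (0.983) and Dio2 (0.983), which activates thyroid hormone, were most like Slc2a3. Riok3 (0.947), Ercc6 (0.944) and the splicing factor Prpf4 (0.939) were most like Gsto1.

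Other genes of VitC handling were counted in 3 lists. Of 10 genes that lead from glucose to gulonate upstream of Gulo or branch from that route, 8 were tested and none passed in any of the 3 comparisons. Their median log2 fold change in VitC+/- was 0.02 against VitC+ and -0.11 against WT. Among all tested genes, 5.53% rose and 8.02% fell against VitC+, and 15.2% and 15.7% against WT. In WT against VitC+, 0% passed. Of 10 further members of the SVCT and GLUT families, 5 were tested. In VitC+/-, 0 rose and 1 fell against VitC+, and 2 rose and 1 fell against WT, beside the same shares. Slc2a6 (GLUT6, a lysosomal carrier) fell in VitC+/- against both VitC+ (log2 fold change -1.13, limma adjusted p = 0.0343) and WT (-1.65, 0.00359). Against WT, Slc2a8 (GLUT8, an intracellular carrier) rose by 1.27 (adjusted p = 0.00277), and the insulin-responsive Slc2a4 (GLUT4) rose by 1.26 (0.0416) with groups that overlapped.

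Of 16 genes that recycle ascorbate and dehydroascorbate, 14 were tested, and 1 rose and 2 fell in VitC+/- against VitC+, near the shares of 5.53% and 8.02% over all tested genes. Gclc, the catalytic subunit of the enzyme that starts glutathione synthesis, stood at 6.44, 11.0 and 7.90 scaled RPKM in WT, 6.95, 6.34 and 8.36 in VitC+, and 17.7, 16.2 and 16.3 in VitC+/-. All VitC+/- libraries were above the other 6 (log2 fold change 1.17 against VitC+, limma adjusted p = 0.00770). Among all tested genes, 20.4% lay so above VitC+ and 21.4% above WT. Glutaredoxin (Glrx), which also reduces dehydroascorbate, fell by 1.04 on the log2 scale (adjusted p = 0.0167) and the lysosomal cytochrome b561 member Cyb561a3 fell by 0.99 (0.0219). Against WT, 3 rose and 5 fell, beside 15.2% and 15.7% of all tested genes. The largest changes were Glrx (-1.82, adjusted p = 0.000768), Cyb561 (1.38, 0.00275), an ascorbate-dependent transmembrane reductase, and Cyb5r3 (1.38, 0.00340), which reduces cytochrome b5. Of these dehydroascorbate reductases, Gsto1 was thus higher and Glrx lower in VitC+/- than in VitC+. In WT against VitC+, none of the 14 passed.

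**Figure D2:**
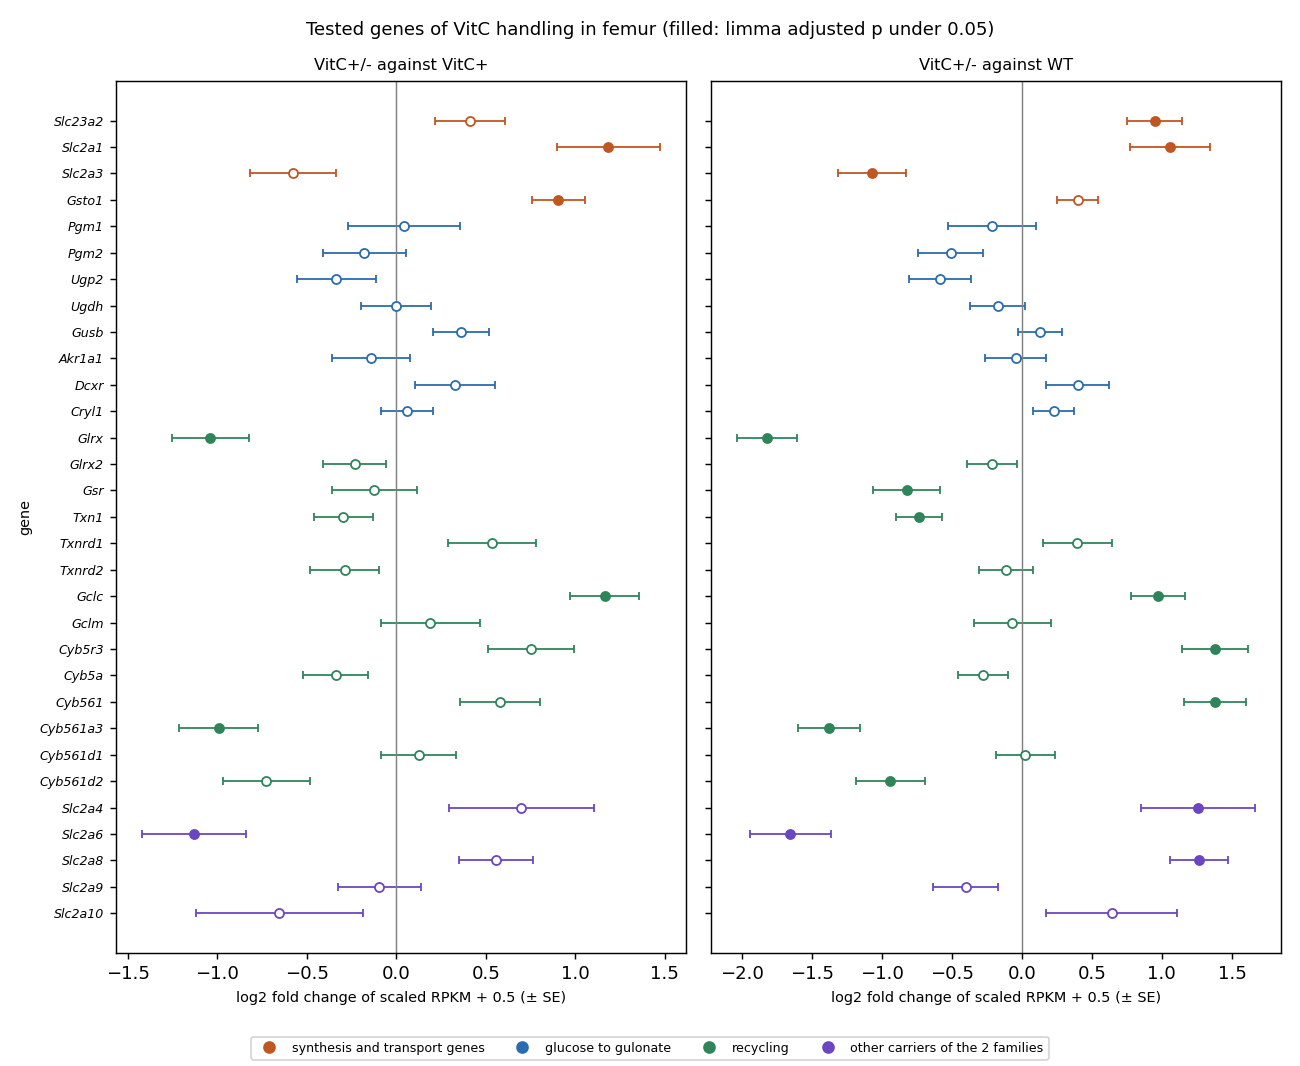
Log2 fold change of scaled RPKM + 0.5 (points, with SE as bars) for the tested genes of the 4 lists in VitC+/- against VitC+ and against WT femurs, 3 libraries per group, filled where the limma adjusted p is under 0.05. Slc2a1 and Gclc are filled to the right of 0 in both panels, Glrx, Cyb561a3 and Slc2a6 to the left of 0, and none of the 8 genes upstream of Gulo is filled.

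The starts of the 3 genes that rose lie in regions rich in CpG, the dinucleotide at which 5hmC is formed. The 250 bases before each start are shown 5′ to 3′ on the strand of the gene (RefSeq, GRCm38), with CpG in capitals, because CpG content bounds the 5hmC that could be read there.
Slc23a2, chr2:132145109-132145358, minus strand: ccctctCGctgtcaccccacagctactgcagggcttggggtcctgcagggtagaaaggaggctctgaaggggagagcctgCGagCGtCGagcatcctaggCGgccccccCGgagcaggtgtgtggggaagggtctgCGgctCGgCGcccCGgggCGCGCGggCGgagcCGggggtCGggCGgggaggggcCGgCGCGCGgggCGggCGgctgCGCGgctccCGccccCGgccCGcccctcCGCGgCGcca
Slc2a1, chr4:119108495-119108744, plus strand: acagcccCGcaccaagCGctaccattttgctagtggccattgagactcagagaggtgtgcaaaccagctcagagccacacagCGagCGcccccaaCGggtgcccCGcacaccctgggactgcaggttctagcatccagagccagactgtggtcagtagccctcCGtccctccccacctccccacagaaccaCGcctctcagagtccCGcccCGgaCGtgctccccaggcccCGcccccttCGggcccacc
Gsto1, chr19:47854723-47854972, plus strand: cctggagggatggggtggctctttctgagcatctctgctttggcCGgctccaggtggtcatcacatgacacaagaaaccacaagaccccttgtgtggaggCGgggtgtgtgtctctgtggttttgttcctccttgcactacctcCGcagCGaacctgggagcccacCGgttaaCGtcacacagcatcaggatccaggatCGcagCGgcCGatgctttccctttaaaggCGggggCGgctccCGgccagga
They hold 31, 13 and 12 CpG, respectively, against a median of 6 in 32851 mouse promoters of the same length, of which 92.1% hold at least 1. Further motifs were searched on both strands. The Slc2a1 window held 1 match of ACGTG, the core bound by hypoxia-inducible factors, and 1 of GCGTG, the core bound by the aryl hydrocarbon receptor. These begin 36 and 61 bases before the start. ACGTG was found in 16.6% of all promoters and GCGTG in 28.2%. Neither was in the Slc23a2 and Gsto1 windows, and TGACNNNGC, the antioxidant response core (10.2% of all promoters), was in none of the 3. A match is a run of letters and not a shown site. No femur 5hmC list had a peak in any of the 3 windows. In MC3T3-E1 with VitC, 1 peak of 10.3-fold enrichment shared 39 bases with the Slc2a1 window.

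In the Tet femurs, none of the carriers nor Gsto1 passed in any comparison with Ctrl, in which limma called 2, 2 and 0 of 16780 genes (0.0119%, 0.0119% and 0%) for Tet1 cKO, Tet2 cKO and Tet1/2 cKO, with 382, 368 and 847 at an unadjusted p under 0.05. DESeq2 called 13, 15 and 11 genes and edgeR 0, 1 and 0, on whole reads recovered from 11 libraries without Tet1 cKO replicate 3, and none of the 7 genes was among them. Slc23a1, Slc23a2, Slc2a1, Slc2a3 and Gsto1 were tested on log2(normalized count + 1), and Gulo and Rgn were not, with normalized counts of 0 to 4.06 and 0 to 2.12. The 3 comparisons share the Ctrl libraries.

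In Tet1/2 cKO, 2 of 3 libraries held more Slc2a3 than any Ctrl library. Slc2a3 stood at 10462, 7278 and 8659 normalized counts in Ctrl, 5366, 9632 and 6445 in Tet1 cKO, 3638, 11076 and 6950 in Tet2 cKO, and 18429, 10943 and 9736 in Tet1/2 cKO. The groups overlapped in each comparison. The log2 fold change in Tet1/2 cKO was 0.52 (SE 0.39, limma adjusted p = 0.723). The summed neutrophil markers were 808652 to 1221738 normalized counts in Ctrl and 1139872 to 2611472 in Tet1/2 cKO, which overlapped, and 0 of 8 passed. Osteoblast and osteocyte sums were 1005268 to 1298035 in Ctrl and 311253 to 694339 in Tet1/2 cKO, with 0 of 10 past the threshold. Skeletal muscle sums were 95009 to 418874 and 2317 to 347887, with 0 of 6. The part of these cells in the Slc2a3 values was not tested.

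Gsto1 was 1739, 1402 and 1678 normalized counts in Ctrl and 2071, 2006 and 1753 in Tet1/2 cKO. All 3 Tet1/2 cKO libraries lay above all Ctrl libraries, as in 7.37% of tested genes, with a log2 fold change of 0.28 (SE 0.20, limma adjusted p = 0.723). In Tet1 cKO and Tet2 cKO its values were 1738, 1682 and 1117 and 1214, 1665 and 1487, which overlapped Ctrl. Gsto1 in Tet1/2 cKO was the only case among the 5 tested genes in which the groups did not overlap.

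The remaining carriers overlapped Ctrl in each comparison. Slc2a1 was 430, 237 and 316 normalized counts in Ctrl, 156, 287 and 321 in Tet1 cKO, 1122, 261 and 442 in Tet2 cKO, and 439, 299 and 419 in Tet1/2 cKO. Slc23a2 was 1271, 929 and 1012 in Ctrl, 1186, 1026 and 1146 in Tet1 cKO, 2103, 805 and 1208 in Tet2 cKO, and 1119, 940 and 1001 in Tet1/2 cKO. The highest value of each came from Tet2 cKO replicate 1, the library that stood apart. With it, the log2 fold change in Tet2 cKO was 0.67 (SE 0.49) for Slc2a1 and 0.26 (SE 0.29) for Slc23a2, and without it 0.09 and -0.11 (limma adjusted p = 1.00 in each case). Slc23a1 ranged from 89.4 to 153 in Ctrl, 76.4 to 164 in Tet1 cKO, 50.4 to 177 in Tet2 cKO and 70.0 to 133 in Tet1/2 cKO. Of the upstream, recycling and other carrier lists, 9, 16 and 8 genes were tested and none passed in any of the 3 comparisons.

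**Figure D3:**
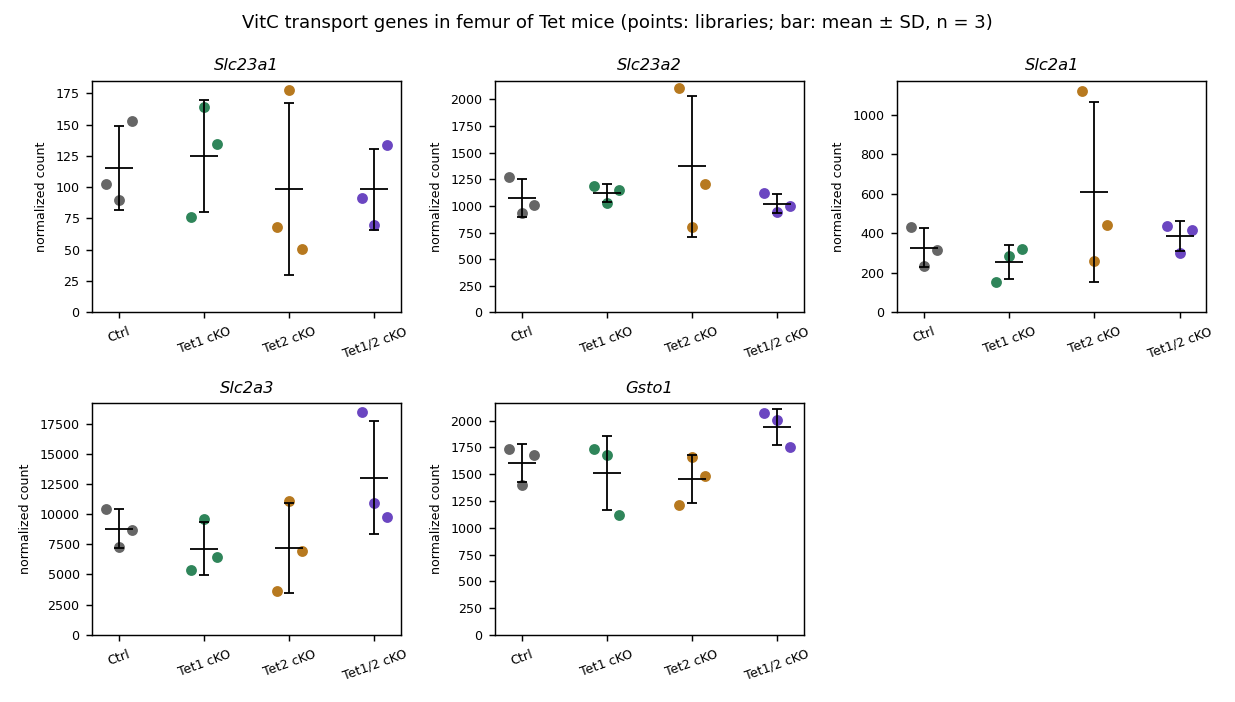
Normalized counts (linear axis) of 5 genes in the 12 femur libraries of the control mice and the Tet1 cKO, Tet2 cKO and Tet1/2 cKO mice, with points for libraries and bars for the mean ± SD (n = 3). Groups overlap except for Gsto1 in Tet1/2 cKO, and Tet2 cKO replicate 1 gives the highest Slc2a1 (1122) and Slc23a2 (2103).

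Around the 6 loci that could be read, 5hmC peaks covered similar lengths in VitC+ and VitC+/- femurs, with the largest log2 ratio at Gulo. Slc23a2 (GRCm38 chr2:132052496-132145108, minus strand) carried the most 5hmC, with 37 peaks in each list that covered 22577 bases in VitC+ and 20125 in VitC+/-. Its strongest peak, at 18.0-fold and 17.7-fold enrichment in VitC+ and VitC+/-, lies inside the gene, 34995 and 35000 bases from its start (chr2:132109837-132110390 and chr2:132109854-132110362). Inside the gene, 26 peaks were called in VitC+ and 21 in VitC+/-.

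The other loci held fewer peaks. Slc2a1 (chr4:119108745-119137329, plus strand) had 9 peaks over 3904 bases in VitC+ and 8 over 3987 in VitC+/-, none of them inside the gene, and the nearest lay 17.7 kb before its start in both. Slc2a3 (chr6:122727809-122742745, minus strand) had 5 over 2344 bases and 6 over 2375. Gsto1 (chr19:47854989-47864788, plus strand) had 8 over 2365 and 6 over 2133, and Gulo (chr14:65986787-66009210, minus strand) 9 over 3325 and 6 over 2183. Gulo thus had the largest difference, a log2 ratio of covered length of -0.44, with 16.4% of the genes with a peak in either list at or below it. None of its peaks lay inside the gene. Covered lengths were compared as log2 of the ratio after adding 1000 bases to each, and these lists have no replicates and no test.

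None of the 6 genes passed 1.5-fold in VitC+/- against VitC+, whereas 7.54% of the 22103 genes with a peak in either list were lower and 11.2% were higher by that rule. The 6 log2 ratios ran from -0.44 to 0.02, beside a median of -0.11 over all genes. At Slc2a3 the covered length hardly differed but the peaks did, since only 2 of its 6 peaks in VitC+/- had an overlapping peak in VitC+, and 2 of its 5 in VitC+ had one in VitC+/-. Over all peaks these shares were 73.7% and 77.8%. At Slc2a1, 8 of 8 and 8 of 9 overlapped. Rgn lies on the X chromosome (chrX:20549818-20562087, plus strand), of which these 2 lists hold no peaks, and was not analysed here for this comparison.

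One of the Slc2a3 peaks that was called in VitC+ and not in VitC+/- lies inside the gene, 920 bases from its start. It is printed 5′ to 3′ on the strand of the gene, with its 6 CpG in capitals, because it marks a place where the VitC+ and VitC+/- lists differ at the carrier whose RNA was lower in VitC+/- than in WT.
Slc2a3 peak, chr6:122741711-122741940, minus strand: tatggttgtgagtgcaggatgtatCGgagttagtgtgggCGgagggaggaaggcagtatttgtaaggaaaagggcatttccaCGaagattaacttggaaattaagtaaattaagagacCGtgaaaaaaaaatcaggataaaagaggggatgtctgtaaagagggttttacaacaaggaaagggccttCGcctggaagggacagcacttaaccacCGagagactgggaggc
The same 230 bases were covered by a called peak in Ctrl (6.89-fold enrichment), Tet1/2 cKO (6.68-fold), VitC+ femurs (4.80-fold) and MC3T3-E1 without VitC (3.76-fold), and by none in VitC+/- femurs or MC3T3-E1 with VitC. A peak absent from a list fell under the threshold of the caller, which does not give its level. H3K27me3 peaks covered these bases in both MC3T3-E1 lists.

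In Tet1/2 cKO femurs, less sequence was covered by 5hmC peaks than in Ctrl around all 6 carrier, reductase and Gulo loci, as around most genes. Within 30 kb of the gene, Slc2a3 lost the most, from 14 peaks over 11355 bases in Ctrl to 3 over 1472, a log2 ratio of -2.32. Only 1.79% of the 20597 genes with a peak in either list were at or below it, or 7.85% among peaks with a -log10 q of at least 5. Inside the gene the log2 ratio of Slc2a3 was -0.86, with 51.3% of genes at or below it, and Slc23a1 (-1.32), Gsto1 (-1.05) and Slc2a1 (-0.90) lost more. Within the 30 kb window, Slc2a1 went from 18 peaks over 10380 bases to 7 over 3623 (-1.30), and Gsto1 from 12 over 14587 to 9 over 6730 (-1.01). Slc23a2 kept the most, with 45 peaks over 72806 bases in Ctrl and 38 over 44324 in Tet1/2 cKO (-0.70), and all 38 overlapped a Ctrl peak. Gulo gave -0.90, and Rgn had no peak in either list. All 6 were lower by at least 1.5-fold, which is read against a background of 85.3% of genes lower and 0.121% higher, with a median of -1.11. This held for 5 of them inside the gene (Gulo -0.38) and for 5 within 30 kb of the start (Slc23a2 -0.58). The whole lists covered 273 Mb in Ctrl and 123 Mb in Tet1/2 cKO. Ctrl femurs had 8 peaks inside Slc2a1 where VitC+ femurs had 0, and 2 of the 18 Ctrl peaks around this gene overlapped a VitC+ peak. Ctrl and VitC+ femurs differ in age, Gulo genotype, source of VitC, Prrx1-Cre and processing, which cannot be told apart.

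In MC3T3-E1 cells, VitC went with more covered sequence around the same 6 genes. Slc23a2 had 52 peaks over 58491 bases with VitC and 34 over 21211 without (log2 ratio 1.42), Slc2a3 18 over 13792 and 13 over 5653 (1.15), and Gsto1 16 over 19257 and 16 over 11057 (0.75). Slc2a1 had 11 over 4795 and 6 over 2814 (0.60). With VitC, 6 of its peaks lay inside the gene, against 1 without, and only 2 of the 11 overlapped a peak of the other list. Gulo gave 1.06, with 6 peaks over 3135 bases against 3 over 988, and Rgn 0 peaks against 1. The 6 genes other than Rgn were higher by at least 1.5-fold, beside 47.4% of 23224 genes higher and 29.4% lower, with a median of 0.49. This count of 6 was 4 for peaks within 30 kb of the start, where Gulo gave 0.13 and Gsto1 0.41, and 4 for peaks inside the gene, where Slc23a1 gave 0.34 and the direction of Gulo turned (-0.38, from 1 peak without VitC). It was 5 for peaks with a -log10 q of at least 5, where Slc2a1 gave 0.29.

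**Figure D4:**
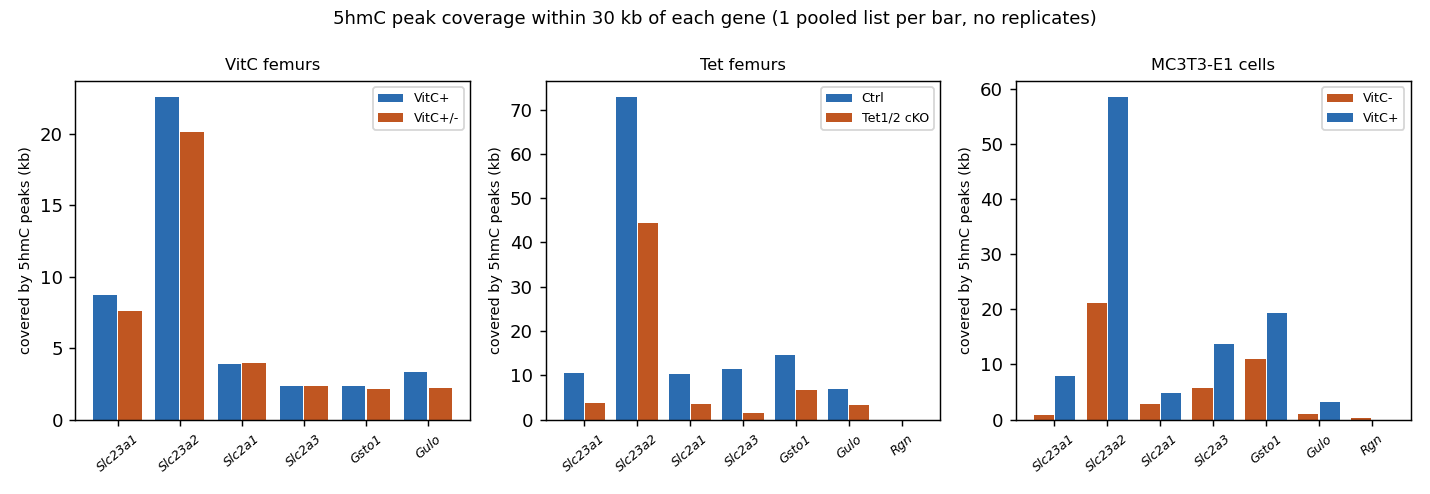
Sequence covered by 5hmC peaks (kb, linear axis) within 30 kb of each gene in VitC femurs, Tet femurs and MC3T3-E1 cells, 1 pooled list per bar and no replicates. Bars are of similar height in VitC+ and VitC+/- femurs, with the largest log2 ratio at Gulo (3325 and 2183 bases). They are lower in Tet1/2 cKO than in Ctrl, and higher in MC3T3-E1 with VitC than without for each gene except Rgn.

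**Figure D5:**
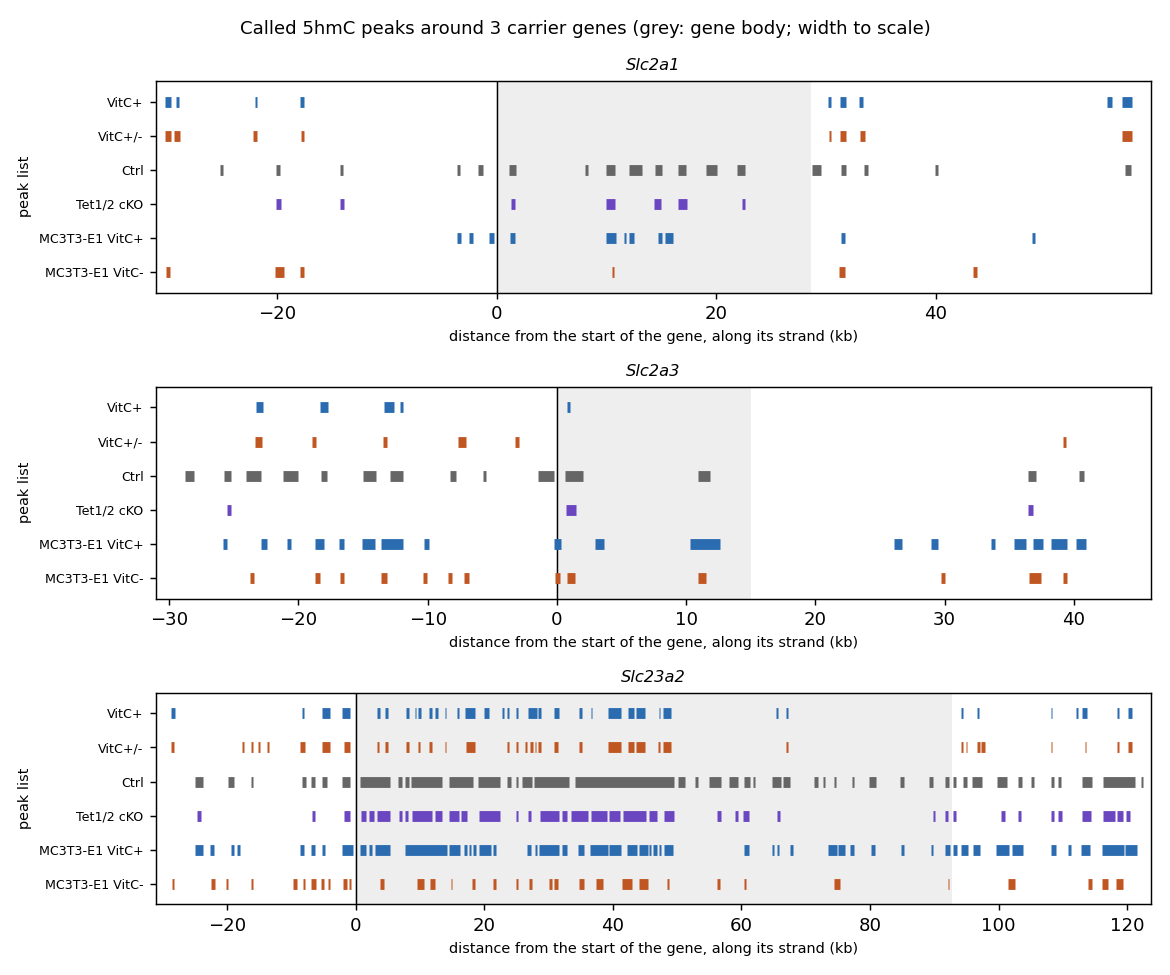
Called 5hmC peaks (bars, width to scale) in 6 lists against the distance from the gene start along its strand (kb), with the gene body in grey, for Slc2a1, Slc2a3 and Slc23a2. The body of Slc23a2 holds peaks in all 6 lists, and the body of Slc2a1 is empty in both VitC femur lists and holds 8 peaks in Ctrl.

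Within 30 kb of the gene, SVCT1 (Slc23a1, chr18:35614604-35627227, minus strand) differed most in MC3T3-E1. It had 16 peaks over 7842 bases with VitC and 2 over 797 without, a log2 ratio of 2.30, and 98.2% of genes were at or below it. Inside the gene it had 1 peak of 270 bases with VitC and 0 without (0.34), with 44.1% of genes at or below that. With VitC, 15 of the 16 lay beyond the end of the gene, and both peaks of cells without VitC lay before its start, so 0 of 16 overlapped, against 36.0% over all peaks of that list. In femurs, the same region beyond the gene end held 16 of the 20 peaks in VitC+ and 16 of 20 in VitC+/-, which covered 8725 and 7612 bases (-0.18). In Tet femurs, Slc23a1 had 13 peaks over 10546 bases in Ctrl and 6 over 3833 in Tet1/2 cKO (-1.26).

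H3K27me3 was called around 6 of the 7 genes and H3K9me3 around 3. H3K27me3 peaks around Slc2a1 numbered 1 over 668 bases in MC3T3-E1 with VitC and 3 over 6926 without (log2 ratio -2.25), and Gulo had 11 over 5915 bases against 9 over 20457 (-1.63). Slc2a3 had 8 over 13925 and 6 over 12033 (0.20), with the strongest one over its start in both lists. When every peak that overlapped the window by at least 1 base was counted, Slc2a3 had 7 peaks over 25824 bases without VitC and its direction turned (-0.85). Gsto1 had 7 over 26890 and 5 over 28124 (-0.06). Slc23a2 had 2 over 1301 and 1 over 470 (0.65), Rgn 1 in each list and Slc23a1 none. By 1.5-fold, 2 genes were lower and 1 was higher with VitC, beside 54.3% of 15968 genes lower and 4.38% higher, and 3 were lower when peaks were counted by overlap. H3K9me3 was called around Slc23a1 (2 peaks over 6159 bases with VitC, 4 over 5327 without), Gsto1 (0 and 1) and Slc2a3 (0 and 1) and around none of the other 4 genes. Gsto1 was lower by 1.5-fold, beside 47.4% of 14871 genes lower and 7.45% higher. The histone lists hold peaks down to a -log10 q of 1.01. With a -log10 q of at least 5, no H3K27me3 or H3K9me3 peak was left around any of the 7 genes. No count past 1.5-fold could remain there, so that setting does not check these counts.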

How the data were processed

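Femoral RNA was sequenced in 9 VitC and 12 Tet libraries, and 5hmC, H3K27me3 and H3K9me3 were given as 10 pooled peak lists. Per the submitters' processing notes, reads were checked with FastQC 0.72, trimmed with Trim Galore 0.4.3.1, aligned to mm10 with STAR 2.6.0b-1 and counted with featureCounts 1.6.3. The authors deposited RPKM for the VitC femurs, and for the Tet femurs a normalized count signal, which is gene counts divided by DESeq2 2.11.40.2 size factors. Peaks were mapped with BWA 0.7.15.1 and called with MACS2 2.1.1.20160309.6, and the deposited fold enrichment is a ratio over local background. The deposited -log10 q of each peak is the score of the caller. The other peak columns, input DNA and the H3K27ac data were not used here.

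RPKM were divided by median-of-ratios factors, and 12586 genes with at least 1 RPKM in 3 libraries were tested with limma 3.58.1 (R 4.3.3, trend) on log2(RPKM + 0.5). edgeR had been chosen should the files hold counts. For the Tet femurs the test was run on log2(normalized count + 1) of the 16780 genes that reached 10 in 3 or more libraries. Each experiment was fitted over all of its libraries, so the spread is common to its groups, and a Benjamini-Hochberg adjusted p under 0.05 was called. Low values gave whole reads for 91.3% to 94.9% of genes in the VitC libraries (within 0.05 read) and 100% in the Tet libraries (within 0.02 read), which gave the depths. edgeR 4.0.16 and DESeq2 1.42.0 on recovered Tet reads were alternatives. Counting limits cover counting error only. Samples share replicate numbers, and no block was used in the main tests. Deviations of libraries with the same number correlated at -0.19 to 0.46 in VitC and -0.57 to 0.53 in Tet libraries. The medians were 0.09 and -0.16, against -0.07 and 0.11 for libraries with different numbers. Whether samples pair was not tested. In simulated data, limma recovered 54 of 100 genes changed by 1 on the log2 scale and 86 of 100 changed by 2 in VitC+/- against VitC+ (8 false calls), and 29 and 56 of 100 in Tet1 cKO against Ctrl (6 false calls).

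The 7 genes, the 3 pathway lists and the marker lists were chosen with earlier results of these data known. All 7 genes are named, as are up to 3 genes past the threshold with the largest change per list and comparison, and the 3 tested genes with the highest r to each tested gene of the 7. The ratios between carriers were added after the values were seen. Loci are those given with the femur RPKM values, and strands and promoters are from RefSeq, all on GRCm38. Promoter sequences of Gulo, Rgn, Slc23a1 and Slc2a3 are not shown. The labels give 28 days of culture for the histone samples and the methods of the study 7, so no day is given.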

Additional observations from a re-analysis of the deposited data

How the results depend on the processing

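The counts of tested genes past the threshold, among Slc23a2, Slc2a1, Slc2a3 and Gsto1, were 2 in VitC+/- against VitC+, 3 in VitC+/- against WT and 0 in WT against VitC+. In the first comparison the count was 1 with no filter on low values, where Slc2a1 had an adjusted p of 0.0819 among 23358 genes. It was also 1 without WT replicate 1 and VitC+ replicate 1 together (Slc2a1 adjusted p = 0.0876), an alternative chosen after seeing the data because these libraries hold hepatocyte mRNA, and 1 to 3 when single libraries were left out. In the second it was 2 to 4, also when single libraries were left out, and Slc2a1 lost its call with no filter (0.0699) and with only the 6 libraries of both groups (0.0518), while Gsto1 gained one after quantile normalization (0.61, adjusted p = 0.0193). The call of Gsto1 against VitC+ (adjusted p = 0.00577 to 0.0353), and those of Slc23a2 (0.00582 to 0.0300) and Slc2a3 (0.00193 to 0.0453) against WT, held in all alternatives run. The replicate block left the counts at 2, 3 and 0 in the VitC comparisons and at 0 in the 3 Tet comparisons, and changed no call of these genes. Over all genes, WT against VitC+ gave 0 calls, 749 with the replicate block and 656 without WT replicate 1, and VitC+/- against VitC+ gave 1705, 876 with RPKM as deposited, which shifts the median log2 fold change from 0.01 to 0.13, and 491 to 2295 when single libraries were left out. VitC+/- against WT gave 3899 calls, and 2267 without WT replicate 3. The cause was not tested.

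In the Tet femurs, no gene of the 7 passed in any of 57 alternatives, and 11 of 285 fold changes turned their sign, none of them called. Gsto1 in Tet1 cKO was 0.0654 by edgeR and 0.0887 by DESeq2, and after quantile normalization Slc23a1 and Slc23a2 in Tet1/2 cKO were 0.0723 and 0.00850. When single libraries were left out, the log2 fold changes ran from -0.22 to 0.10 for Gsto1, -0.14 to 0.40 for Slc23a1 and -0.0222 to 0.20 for Slc23a2 in Tet1 cKO, from -0.11 to 0.59 for Slc23a2 and -0.79 to 0.0117 for Slc2a3 in Tet2 cKO, and from -0.16 to 0.0693 for Slc23a2 in Tet1/2 cKO. The mean log2 difference of Gulo between WT and knockout ran from 0.655 to 3.55 when single libraries were left out, and was 1.19 with a pseudocount of 0.1 and 1.73 with RPKM as deposited (exact permutation p = 0.0952 and 0.298). For H3K27me3, 0 genes were higher by 1.5-fold with peaks inside the gene only, and no peak was left around the 7 genes with a -log10 q of at least 5. For H3K9me3, no peak was left under either setting, so neither these nor the -log10 q limit for H3K27me3 can check the counts. Depth limits Gulo and Rgn most, with at most 39 and 4 reads, and the peak lists, with no replicates, carry no error.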
